A study of Mus musculus with 6 samples.

Results

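The microRNAs miR-204 and miR-211 were followed in the tissue behind the mouse retina, with and without laser injury. The tables list 4 of their mature forms, the 5p and 3p arms of each precursor (mmu-miR-204-5p, mmu-miR-204-3p, mmu-miR-211-5p and mmu-miR-211-3p, written here without the species prefix). These were taken by name from the 2334 small RNAs listed, of which 1836 were miRNAs. The CNV group had choroidal neovascularization, the growth of choroidal vessels under the retina, started by 25 laser burns per eye (532 nm, 100 mW, 0.1 s, 50 µm), and its eyes were taken 7 days later. The control group had eyes of age-matched mice that received no laser. Both groups were male mice of 7 to 8 weeks, with no strain or genotype stated in the labels. The tissue was a mixture of cell types, taken as a single complex from the pigment epithelium of the retina (RPE), the vascular choroid and the fibrous sclera. Each group had 3 small RNA libraries, each made from the pooled tissue of 4 eyes. Whether the mice differed from pool to pool is not stated, so the p-values reflect the spread among the pools only, and some of it may be technical.

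A miRNA gene is transcribed into a hairpin, and either side of its stem can be cut out as a mature miRNA of about the same length. As a rule 1 arm is loaded into the silencing complex and accumulates, while the other is degraded and stays rare. The loaded arm pairs with messenger RNAs mainly through its seed, bases 2 to 8 from its 5′ end. Both miR-204 and miR-211 are abundant in RPE, where they are known for maintaining the differentiated epithelium and its barrier, and MITF, the transcription factor of pigment cells, is known to drive the host genes of both. RPE is not their only source. Trpm1, the host gene of miR-211, is also transcribed in melanocytes, which lie in the choroid, and in ON bipolar cells of the retina.

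The mature sequences are shown because the arms that share a seed also share nearly all other bases, which bears on how their reads can be told apart. They are from RefSeq, build GRCm38.p6, where all 4 arms were found by name, and are written 5′ to 3′ with the seed in capitals.

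miR-204-5p: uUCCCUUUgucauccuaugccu

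miR-211-5p: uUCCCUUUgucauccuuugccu

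miR-204-3p: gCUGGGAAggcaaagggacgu

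miR-211-3p: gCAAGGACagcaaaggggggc

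Both 5p arms had the seed UCCCUUU and were identical at all but 1 of 22 positions (95.5%). The substitution was A17U, with miR-204-5p first and positions counted from its 5′ end. How many mismatches the authors' mapping allowed is not stated in the labels, so reads of one 5p arm could have been counted for the other. The 3p arms had different seeds and agreed at 14 of 21 aligned positions. A sequence was at hand for 1560 of the listed miRNAs. Among these the seed of the 5p arms was shared by miR-7670-3p and that of miR-204-3p by miR-7684-5p, each with 0 to 2 counts per library, and no other miRNA had the seed of miR-211-3p. No other small RNA in the tables had the same counts as any of the 4 arms in every library.

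The hairpins show where the arms lie, with both mature arms in capitals.

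miR-204 hairpin: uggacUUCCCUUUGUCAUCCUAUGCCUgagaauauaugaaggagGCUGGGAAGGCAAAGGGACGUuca

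miR-211 hairpin: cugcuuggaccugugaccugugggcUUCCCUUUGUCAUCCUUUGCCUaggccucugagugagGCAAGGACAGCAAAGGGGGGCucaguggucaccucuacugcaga

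The miR-204 hairpin lies at chr19:22750605-22750672 on the plus strand of GRCm38, in an intron of each of the 18 annotated Trpm3 transcripts that span it. The miR-211 hairpin lies at chr7:64205806-64205911 on the plus strand, in an intron of each of the 12 Trpm1 transcripts that span it. Both host genes encode cation channels and run in the same direction as the hairpins. The arms are separated by 17 bases in the miR-204 hairpin and by 15 in that of miR-211.

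The libraries held 5321436 to 5820315 counts in the CNV group and 5057142 to 12839386 in the control group, where control replicate 2 was the deepest. All 4 arms had reads in every library and passed the filter on low counts, with 997 small RNAs tested together. Levels are CPM, counts relative to the library total, after scaling by trimmed mean of M-values (TMM). Reads were not counted with molecular identifiers, so intervals on shares cover counting error only. Over all 997 small RNAs the quasi-likelihood test of edgeR, adjusted by Benjamini and Hochberg's method, called 3 higher (0.301%) and 0 lower (0%) at an adjusted p of 0.05. At an unadjusted p under 0.05 it had 177 small RNAs, of which 69 were lower (6.92% of those tested). At an adjusted p under 0.05 limma-voom called 0 lower (0%) and 3 higher (0.301%). DESeq2 called 11 lower (1.1%) and 29 higher (2.91%) at that adjusted threshold.

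The main arms miR-204-5p and miR-211-5p, which carry the shared seed, were lower in every CNV pool than in every control pool, but neither passed the test. The level of miR-204-5p was 4873, 3807 and 3201 CPM in CNV pools 1 to 3, against 5053, 5092 and 4923 CPM in control pools 1 to 3. The control pools lay within a narrow band, while the CNV pools were spread out and CNV replicate 1 lay just under that band. The log2 fold change of miR-204-5p was -0.34 (SE 0.18, 95% interval -0.75 to 0.06), with an adjusted p of 0.372 over all small RNAs in edgeR's test. Without CNV replicate 1 it was -0.53 (adjusted p 0.341).

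The level of miR-211-5p was 1626, 1322 and 1321 CPM in CNV pools 1 to 3, against 1932, 1808 and 1845 CPM in the control pools. CNV replicate 1 was again the CNV pool nearest to the controls, and the groups did not overlap. The log2 fold change of miR-211-5p was -0.39 (SE 0.15, 95% interval -0.73 to -0.05), with an adjusted p of 0.238. CPM values of all CNV pools lay below those of all control pools for 89 of the 997 small RNAs tested (8.93%), and for 3 of the 4 arms. They lay above those of all control pools for 114 (11.4%), none of the arms among them. In these bulk samples fewer cells of a type and less of a miRNA per cell cannot be told apart.

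**Figure D1:**
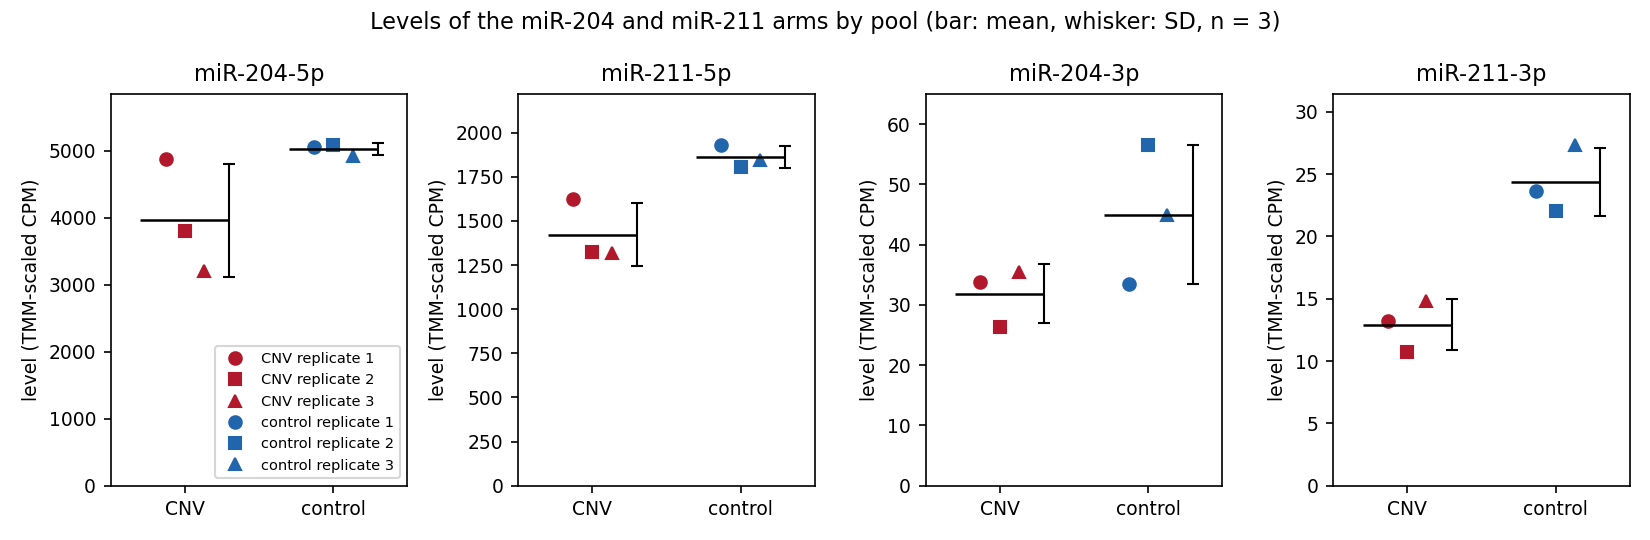
Level of each arm in TMM-scaled CPM (vertical axes from 0) for the 3 CNV pools and the 3 control pools, with the group mean as a bar and the SD as a whisker. The CNV pools lie below all control pools for miR-204-5p, miR-211-5p and miR-211-3p, and the groups overlap for miR-204-3p.

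The 3p arms are the rare sides of the same hairpins. The level of miR-211-3p was 13.2, 10.7 and 14.8 CPM in CNV pools 1 to 3, against 23.6, 22.1 and 27.4 CPM in control pools 1 to 3. The groups were clearly apart, with the highest CNV pool well under the lowest control pool. On average it was at 12.9 ± 2.04 CPM in CNV and 24.4 ± 2.72 CPM in control (SD, n = 3 each), or 0.533 times the control level. Its log2 fold change was -0.91 (SE 0.21, 95% interval -1.39 to -0.43). It ranked 16 of 997 by p in edgeR's test, with an adjusted p of 0.127, and did not pass. DESeq2, run on the same small RNAs, called miR-211-3p lower at an adjusted p of 0.0109. So did edgeR without a filter on low counts (adjusted p 0.0116), where 1.84% of the 2334 small RNAs were called lower and 1.93% higher. With the replicate number as a block in edgeR its adjusted p was 0.0446, and 17 small RNAs were called lower and 19 higher. The labels do not say that these numbers pair the pools. Neither limma-voom (adjusted p 0.131) nor edgeR with relative log expression (0.137), total-count scaling (0.174) or miRNAs only (0.0726) called miR-211-3p. Nor did edgeR with any 1 replicate left out (0.0587 to 0.507). The other 3 arms had an adjusted p of 0.281 (miR-204-5p), 0.222 (miR-204-3p) and 0.102 (miR-211-5p) in DESeq2 and were not called. The level of miR-211-3p rested on 68, 54 and 86 counts in the CNV libraries and on 137, 307 and 134 in the control libraries.

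The level of miR-204-3p was 33.9, 26.3 and 35.4 CPM in CNV pools 1 to 3, against 33.5, 56.6 and 44.9 CPM in control pools 1 to 3. Control replicate 1 lay within the CNV range, so the groups overlapped. Its log2 fold change was -0.50 (SE 0.24, 95% interval -1.04 to 0.04), with an adjusted p of 0.320 in edgeR's test. Without control replicate 1 it was -0.66, and without control replicate 2, the deepest library and the highest value, -0.39.

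The question of whether both arms of a hairpin moved alike can be put within each library, where no scaling enters. In the miR-211 precursor the 3p arm made up 0.807%, 0.807% and 1.11% of the counts of both arms in CNV pools 1 to 3 (95% Wilson intervals 0.637 to 1.02%, 0.619 to 1.05% and 0.897 to 1.36%). In control pools 1 to 3 it made up 1.21%, 1.21% and 1.46% (1.02 to 1.43%, 1.08 to 1.35% and 1.23 to 1.73%). All CNV pools were below all control pools, though the counting interval of CNV replicate 3 reached into the control values. There were 123, 123 and 89.3 reads of miR-211-5p for each read of miR-211-3p in the CNV pools, against 81.8, 81.9 and 67.4 in the control pools. The log2 ratio of 3p to 5p differed by -0.52 between CNV and control, with an exact two-sided permutation p of 0.1, the smallest that 3 against 3 can give, and 0.4 adjusted over the 4 ratios examined.

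In the miR-204 precursor the 3p arm made up 0.690%, 0.685% and 1.09% of the counts in CNV pools 1 to 3 (95% Wilson intervals 0.595 to 0.800%, 0.578 to 0.812% and 0.955 to 1.25%). The control pools 1 to 3 had 0.658%, 1.10% and 0.904% (0.572 to 0.757%, 1.03 to 1.18% and 0.793 to 1.03%). The 2 groups covered nearly the same range. CNV replicates 1 and 2 were nearly equal, while CNV replicate 3 lay above the counting intervals of both, and control replicate 1 lay below those of the other control pools. The difference in the log2 ratio was -0.11 (exact two-sided permutation p = 0.9, adjusted 0.9). It was -0.34 without CNV replicate 3, -0.31 without control replicate 1 and -0.0012 without CNV replicate 1, and its sign changed without CNV replicate 2 (0.00294) or control replicate 2 (0.0593).

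**Figure D2:**
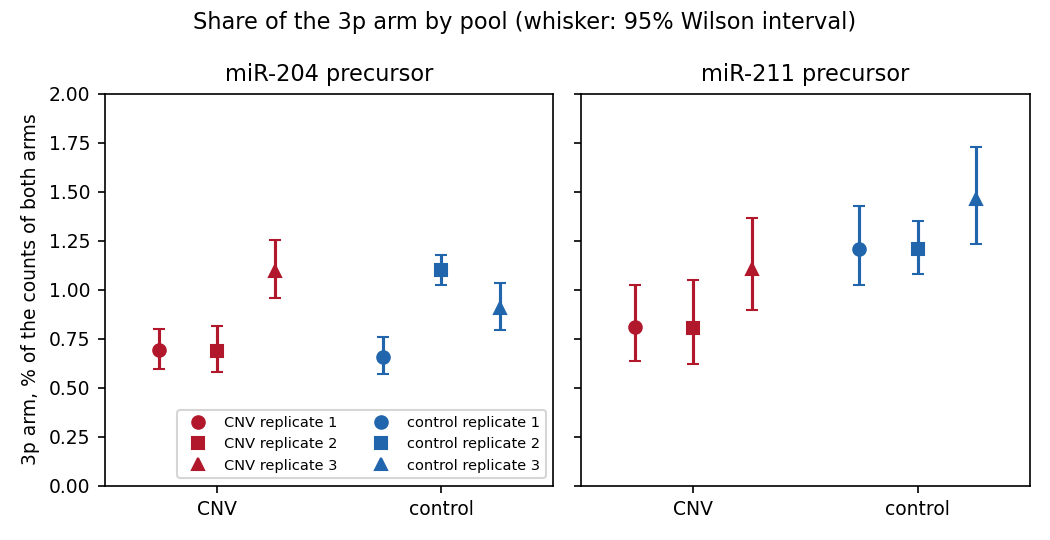
Share of the 3p arm in the counts of both arms, in percent, for the miR-204 and miR-211 precursors in each CNV and control pool, with 95% Wilson intervals for counting error. For miR-211 the CNV pools run from 0.807 to 1.11% and the control pools from 1.21 to 1.46%. For miR-204 the groups overlap.

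The same ratio was set beside that of every precursor whose arms were both tested, 156 in all, in a limma fit that was added after the data had been seen. The median difference of the log2 ratio over these precursors was -0.02, with 79 lower and 77 higher in CNV. In this fit the miR-211 ratio was at -0.52 (SE 0.22, 95% interval -0.99 to -0.06) with an adjusted p of 0.366, and ranked 12 by p. The miR-204 ratio was at -0.11 (95% interval -0.65 to 0.43) with an adjusted p of 0.953. The fit called 0 of the 156 (0%), and at an unadjusted p under 0.05 it had 9 lower (5.77%), miR-211 among them. The ratio of all CNV pools lay below that of all control pools in 13 precursors (8.33%), again with miR-211 among them, and above it in another 13 (8.33%).

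**Figure D3:**
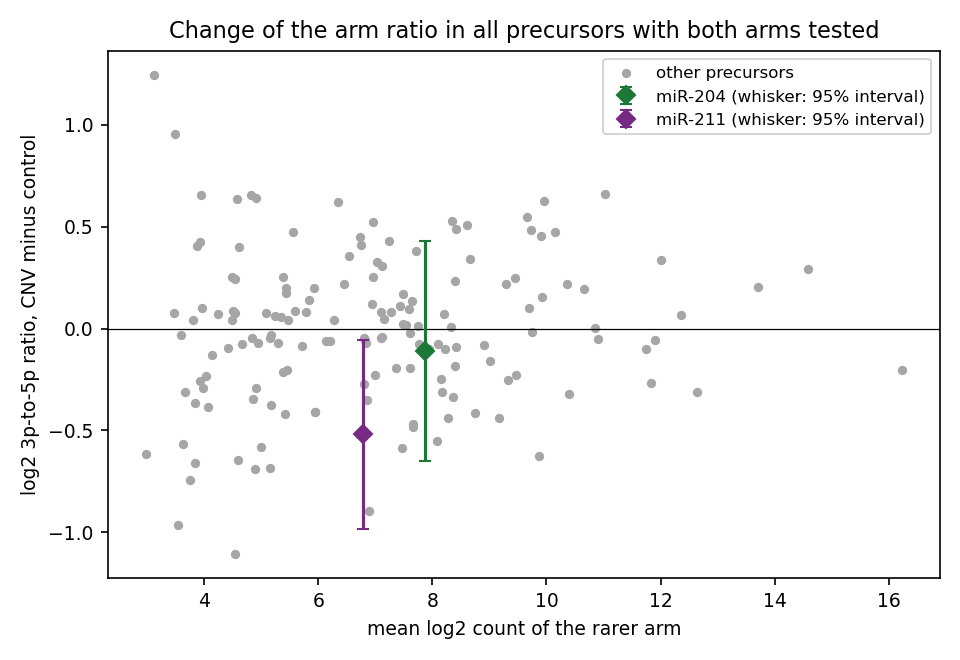
Difference between CNV and control in the log2 3p-to-5p ratio (vertical axis) against the mean log2 count of the rarer arm (horizontal axis) for 156 precursors, with miR-204 and miR-211 marked and given with 95% intervals. The miR-211 point at -0.52 lies on the lower side of the cloud but within it, and the miR-204 point at -0.11 lies near 0.

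Between the precursors, miR-204-5p was the more abundant main arm in every pool. Counts of miR-211-5p were 33.4%, 34.7% and 41.3% of those of miR-204-5p in CNV pools 1 to 3, against 38.2%, 35.5% and 37.5% in control pools 1 to 3. The control values lay inside the range of the CNV values. The difference in the log2 ratio was -0.03 (exact two-sided permutation p = 0.8, adjusted 0.9), and the sign changed when CNV replicate 1 (0.0305) or CNV replicate 2 (0.00207) was left out. Without CNV replicate 3 it was -0.12 and the groups did not overlap. Counts of miR-211-3p were 39.1%, 40.9% and 41.7% of those of miR-204-3p in the CNV pools, against 70.6%, 39.0% and 60.9% in the control pools. Here the CNV pools were close together and control replicate 2 lay below all of them. The difference was -0.44 (exact two-sided permutation p = 0.4, adjusted 0.8). Without control replicate 2 it was -0.69 and the groups did not overlap, and without control replicate 1 it was -0.26. Arms of different sequence can be ligated with different efficiency, so a ratio of arms is a ratio of reads and need not equal a ratio of molecules.

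Together the 4 arms took 0.634%, 0.546% and 0.503% of the miRNA counts in CNV pools 1 to 3 (95% Wilson intervals 0.627 to 0.641%, 0.539 to 0.552% and 0.497 to 0.509%), against 0.835%, 0.794% and 0.698% in control pools 1 to 3 (0.827 to 0.843%, 0.789 to 0.799% and 0.691 to 0.706%). The shares averaged 0.561 ± 0.0669% in CNV and 0.776 ± 0.0704% in control (SD, n = 3 each), and the groups did not overlap. This share is scaled by miRNA totals alone and so carries the shift between scalings given next. Nearly all of it came from the 5p arms with the shared seed, which by themselves took 0.629%, 0.542% and 0.497% in the CNV pools and 0.829%, 0.785% and 0.691% in the control pools. By rank among the miRNAs listed, miR-204-5p stood at 40, 42 and 45 in the CNV pools and at 39, 39 and 40 in the control pools. The rank of miR-211-5p was 67 in each CNV pool, against 61, 61 and 60 in the control pools, and that of miR-211-3p was 353, 361 and 339 against 302, 313 and 292.

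All 4 arms were lower in CNV under TMM, relative log expression and total-count scaling. Their median log2 fold change was -0.44 under TMM, where the median of all 997 small RNAs was 0.05 and that of the 541 miRNAs was 0.01. When libraries were scaled by total counts alone, the median of the 4 arms was -0.59, and that of all small RNAs moved to -0.11, so lower values were favoured there. Of all small RNAs tested, 46.4% were lower in CNV under TMM, 49.0% under relative log expression and 61.8% under total-count scaling. Among miRNAs the share lower was 48.8%, 51.6% and 66.7% under the same scalings.

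**Figure D4:**
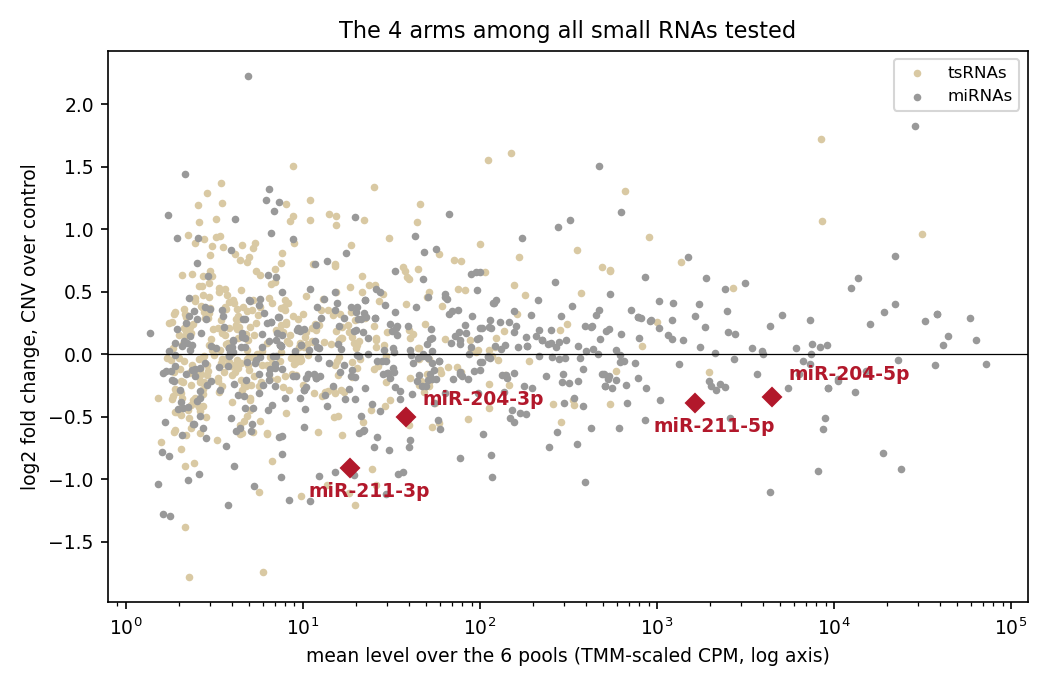
Log2 fold change of CNV over control (vertical axis) against the mean level in TMM-scaled CPM (horizontal log axis) for the 997 small RNAs tested, with the 4 arms as red diamonds. All 4 lie below 0, from -0.34 for miR-204-5p to -0.91 for miR-211-3p, inside the spread of small RNAs of like level.

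Profiles were compared by the mean absolute difference of log2 CPM over the 6 libraries, after each profile was centred on its own mean, among miRNAs with a mean of at least 10 CPM. The difference between CNV and control stays in this distance, so miRNAs of like log2 fold change tend to be near. The 5p arms were close to each other, at 0.09 log2 units, and each was the 2nd nearest of 373 miRNAs to the other. Reads of one 5p arm counted for the other could make their profiles more alike and their ratio steadier. This was not tested. A median miRNA stood at 0.29 from miR-204-5p and at 0.28 from miR-211-5p. Besides each other, the nearest to miR-204-5p were miR-338-3p (0.08) and miR-106a-5p (0.10), and the nearest to miR-211-5p were miR-29c-5p (0.09) and miR-338-3p (0.09).

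Each 3p arm was farther from its own 5p arm than the 5p arms were from each other, at 0.30 log2 units for miR-204 and 0.27 for miR-211. In the order of nearness miR-204-3p came 195th from miR-204-5p, and miR-204-5p came 139th from miR-204-3p. For miR-211 the order depended on the side it was counted from. The 3p arm came 177th from miR-211-5p, while miR-211-5p came 29th from miR-211-3p, from which a median miRNA stood at 0.48. The nearest to miR-204-3p were miR-218-5p (0.13), miR-20b-5p (0.13) and miR-30e-3p (0.14). The nearest to miR-211-3p were miR-708-5p (0.13), miR-592-5p (0.16) and miR-183-5p (0.16), the last from the photoreceptor cluster of miR-183, miR-96 and miR-182. Their log2 fold changes were -0.74, -0.74 and -0.79, against -0.91 for miR-211-3p, and nearness is not separate from this likeness. The level of miR-183-5p was 13930 ± 3488 CPM in CNV and 24080 ± 5670 CPM in control (SD, n = 3 each). The rare arms rest on fewer counts, and the part of counting error in these distances was not tested.

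Markers of other cell types were read in the same libraries, and their part in the values of the 4 arms was not tested. The lists were chosen with earlier results of these data known. Of the 541 miRNAs tested, 48.8% were lower in CNV under TMM. All 4 photoreceptor miRNAs, which come from the cluster of miR-183, miR-96 and miR-182, were tested and lower in CNV, and none passed edgeR's test. Their summed level was 24752 to 49508 CPM in CNV pools and 49378 to 75839 CPM in control pools, and the ranges just overlapped. All 8 neuron miRNAs, a list led by miR-9-5p, were tested and lower, none past the test, with sums of 8464 to 13702 CPM in CNV and 15350 to 22181 CPM in control. None of the markers in either list was at 0 in any library, although the neural retina is not among the layers that the labels name. Relative to the control mean, the photoreceptor list stood at -0.99, -1.40 and -0.40 log2 units in CNV pools 1 to 3 and the neuron list at -0.70, -1.22 and -0.51. In the same pools miR-211-3p stood at -0.86, -1.15 and -0.70, and miR-204-3p at -0.37, -0.74 and -0.31. All of these were lowest in CNV replicate 2 and nearest to the control mean in CNV replicate 3. So was the endothelial list (both arms of miR-126a), at -0.22, -0.33 and -0.0031. Lists with mostly higher miRNAs were nearest to the control mean in CNV replicate 3 as well. These were leukocyte and inflammation (0.91, 0.81 and 0.51), fibroblast and mural (0.53, 0.55 and 0.16) and muscle (0.53, 0.24 and 0.16). The list of other ocular and surface epithelium (0.79, -0.12 and 0.08) was too. That nearness was thus not particular to the lower lists or the 3p arms. The main arms were nearest to the control mean in CNV replicate 1, with -0.04, -0.40 and -0.65 for miR-204-5p and -0.19, -0.49 and -0.49 for miR-211-5p. In control pools 1 to 3 the photoreceptor list stood at 0.28, -0.42 and 0.14 and the neuron list at 0.09, -0.23 and 0.15. There miR-211-3p stood at -0.04, -0.13 and 0.17, also lowest in control replicate 2. By contrast miR-204-3p, at -0.39, 0.36 and 0.03, was highest in control replicate 2.

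The 9 miRNAs of the eye's other epithelia and of surface epithelium, a list led by miR-184-3p of cornea and lens, were all tested. There were 7 higher and 2 lower in CNV, with a median log2 fold change of 0.20 and none past the test, and their sums overlapped (15569 to 35949 CPM in CNV, 13754 to 22865 CPM in control). Relative to the control mean this list stood at 0.79, -0.12 and 0.08 log2 units in CNV pools 1 to 3. It was highest in CNV replicate 1, as were the main arms miR-204-5p and miR-211-5p among the CNV pools. The leukocyte and inflammation list (0.91, 0.81 and 0.51) and the muscle list (0.53, 0.24 and 0.16) were highest there too. In control pools 1 to 3 the epithelium list stood at 0.70, -0.13 and -0.57. The main arms varied less there, with 0.01, 0.02 and -0.03 for miR-204-5p and 0.05, -0.04 and -0.01 for miR-211-5p. The 8 leukocyte and inflammation miRNAs had 7 higher and 1 lower, with 1 past the test, miR-21a-5p, an injury-induced miRNA, at 44686 ± 6145 CPM in CNV and 12615 ± 3812 CPM in control (SD, n = 3 each; adjusted p 0.0183 in edgeR's test). Their sums were 42496 to 55957 CPM in CNV and 12663 to 21020 CPM in control. On average most of the sum was miR-21a-5p in both groups. All 5 fibroblast and mural cell miRNAs were higher, none past the test, with a median of 0.35 and sums of 110071 to 133423 CPM in CNV and 93049 to 106293 CPM in control. Both endothelial arms of miR-126a were lower (median -0.18) and all 3 muscle miRNAs higher (median 0.12), none past the test and with sums that overlapped between the groups.

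**Figure D5:**
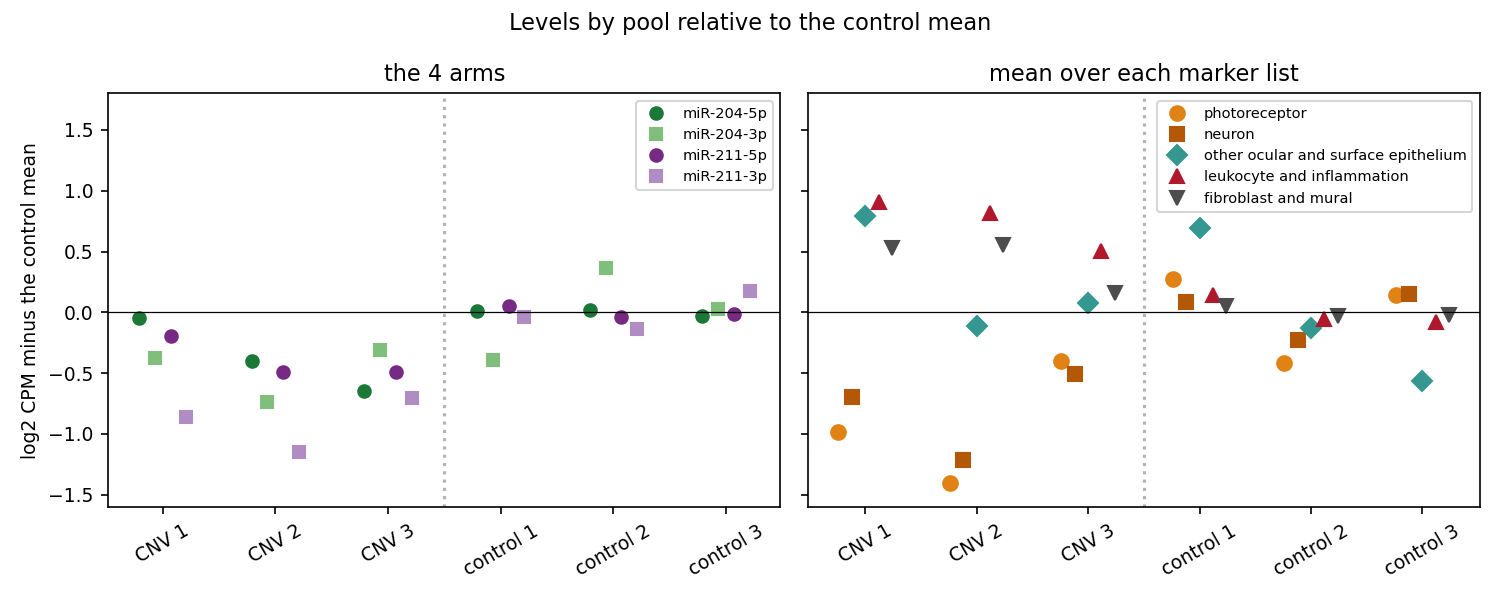
Log2 CPM minus the control mean by pool, CNV pools left and control pools right, for the 4 arms (left panel) and for the mean of each marker list (right panel). The miR-211-3p points of the CNV pools lie between -1.15 and -0.70, and the photoreceptor and neuron lists are also at their lowest in CNV replicate 2.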

How the data were processed

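The authors' deposited tables give a read count per mature miRNA and per tRNA-derived small RNA for each library. Per the labels' protocols, inserts of 14 to 40 nt were sequenced. The submitters' processing notes name Bowtie. Its version, the genome build and the rule for shared reads are not stated there. The deposited CPM column, handled as a score because its miRNA and tsRNA values rest on different totals, was not tested. Groups and replicate numbers come from the sample titles.

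Counts were filtered with filterByExpr (minimum count 10, minimum total 15) and tested in R 4.3.3 with edgeR 4.0.16 (TMM, quasi-likelihood, no covariate), CNV against control, with Benjamini-Hochberg adjustment over all 997 small RNAs at 0.05. For log2 values of single libraries the prior count was 2. Ratios added 0.5 to each count and were tested by exact two-sided permutation. DESeq2 1.42.0 and limma 3.58.1 (voom) were alternatives. The edgeR test and the limma fit of arm ratios were checked on simulated counts. The permutation test, DESeq2 and voom were not.

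The members and marker lists were chosen with earlier results of these data known. Of other miRNAs, the rule named the 3 with the nearest profile to each arm (minimum mean 10 CPM) and, in each marker list, the most abundant or the one with the smallest p; a list led by such a member is named for it. The labels do not say that replicate numbers pair the pools.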

Additional observations from a re-analysis of the deposited data

How the results depend on the processing

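All 4 arms stayed lower in CNV under every alternative that gave a value, between -0.53 and -0.28 (log2) for miR-204-5p, -0.66 and -0.39 for miR-204-3p, -0.54 and -0.32 for miR-211-5p, and -1.10 and -0.84 for miR-211-3p. With edgeR as in the report none passed, and miR-211-3p passed with DESeq2 (-0.94, adjusted p 0.0109), without a filter on low counts (-0.99, 0.0116) and with the replicate number as a block (-0.92, 0.0446). With a minimum mean of 20 CPM miR-211-3p was not tested. Over all small RNAs the count of calls was 3, against 40 with DESeq2, 6 among miRNAs only, 88 without a filter, 0 with a minimum mean of 20 CPM (103 at an unadjusted p under 0.05) and 36 with the replicate block (19 higher, 17 lower), and 0 to 24 when a replicate was left out, the 24 without CNV replicate 3; the cause was not tested. Same-numbered pools had correlations of 0.29, 0.03 and 0.17 in their deviations from the group means, and 5 of 6 pools correlated best with their own number. The numbers were not taken as pairs because the labels do not say that they are. What same-numbered pools may share was not tested. With a replicate left out, miR-211-3p ran from -1.10 to -0.84 with an adjusted p of 0.0587 to 0.507. The difference in the miR-204 arm ratio ran from -0.34 to 0.06, with its sign reversed without CNV replicate 2 (0.00294) or control replicate 2 (0.0593). That of miR-211-5p over miR-204-5p ran from -0.12 to 0.03, reversed without CNV replicate 1 (0.0305) or CNV replicate 2 (0.00207). The miR-211 arm ratio ran from -0.67 to -0.43, and that of miR-211-3p over miR-204-3p from -0.69 to -0.26. The share of miRNA counts taken by the 4 arms differed by -0.215 percentage points, and by -0.303 without the 5 most abundant miRNAs. Depth limits the 3p arms most, with 54 to 307 counts per library for miR-211-3p.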
